A study of Mus musculus with 116 samples.

Results

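Cells of a growing culture stand at different points of the cell cycle, and single-cell RNA libraries can be ordered by how much RNA of late cycle genes they hold. The libraries compared here were 30 of the single-cell libraries of C10, an established mouse line that the labels call alveolar type II epithelial cells: the 15 with the highest and the 15 with the lowest level of 10 genes of G2 phase and mitosis (G2/M). The choice was made among the 45 of 48 C10 single-cell libraries that held at least 100000 gene counts, within a series of 116 libraries. The labels give no cell cycle position, so "G2/M-high" and "G2/M-low" name ranks of a measured score. All these cells were grown by standard culture with no treatment, and the labels do not say which came from one culture or dish. RNA was measured by nanoSPLITS, in which the lysate of a cell in a nanodroplet is split so that a part goes to sequencing and the other to protein measurement. A library therefore holds a part of one cell's RNA. A SMART-Seq kit turned whole transcripts into cDNA, and the values are read counts per gene. CPM means counts per 1000000 gene counts of the library.

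In the G2/M phases a cell checks its copied DNA, condenses its chromosomes, builds a spindle and divides. The kinase CDK1 with B-type cyclins drives entry into mitosis, and the anaphase-promoting complex (APC/C) with its activator CDC20 ends it by marking cyclin B and securin for destruction. Many genes of this programme are held down in resting and early-cycle cells by the DREAM complex and turned on later by MuvB with B-MYB and FOXM1. These factors are known to act through promoter elements called CHR, with TTTGAA as their core, beside CCAAT boxes, which bind NF-Y.

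Promoters are shown here because genes that moved together in this comparison differ in whether they carry these letters. The windows run from 120 bases before to 24 bases after the gene start in RefSeq (GRCm38.p6), on the gene's strand, 5′ to 3′. Capitals mark TTTGAA or CCAAT on either strand (TTCAAA and ATTGG on the reverse strand), and no marked match overlaps another. The first 5 windows belong to genes that were higher in the G2/M-high libraries and hold both motifs. The last 2 belong to genes that were also higher and hold neither, here or in the 300 bases of the table.
Ccnb2, chr9:70421531-70421674, minus strand: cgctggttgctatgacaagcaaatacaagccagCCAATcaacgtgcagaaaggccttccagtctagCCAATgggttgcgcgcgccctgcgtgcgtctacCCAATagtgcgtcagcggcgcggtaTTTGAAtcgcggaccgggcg
Cdc20, chr4:118437320-118437463, minus strand: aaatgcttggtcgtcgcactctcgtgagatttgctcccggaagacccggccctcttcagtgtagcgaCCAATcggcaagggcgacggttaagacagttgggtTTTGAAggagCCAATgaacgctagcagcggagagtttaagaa
Hmgb2, chr8:57511723-57511866, plus strand: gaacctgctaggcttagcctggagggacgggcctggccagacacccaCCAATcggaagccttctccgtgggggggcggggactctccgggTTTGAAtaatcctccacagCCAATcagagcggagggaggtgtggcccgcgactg
Cenpa, chr5:30666766-30666909, plus strand: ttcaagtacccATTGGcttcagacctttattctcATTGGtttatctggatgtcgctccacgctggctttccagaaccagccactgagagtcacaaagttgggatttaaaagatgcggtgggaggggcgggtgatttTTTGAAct
Kif23, chr9:61946776-61946919, minus strand: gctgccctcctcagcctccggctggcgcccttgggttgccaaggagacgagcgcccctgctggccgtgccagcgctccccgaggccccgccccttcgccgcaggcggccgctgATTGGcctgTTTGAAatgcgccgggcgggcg
Mad2l1, chr6:66535101-66535244, plus strand: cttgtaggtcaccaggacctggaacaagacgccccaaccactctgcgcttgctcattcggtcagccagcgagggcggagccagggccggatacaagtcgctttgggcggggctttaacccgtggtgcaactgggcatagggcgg
Birc5, chr11:117849117-117849260, plus strand: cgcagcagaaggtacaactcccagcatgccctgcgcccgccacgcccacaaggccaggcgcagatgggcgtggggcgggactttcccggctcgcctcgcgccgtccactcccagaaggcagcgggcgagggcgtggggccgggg

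The score was the mean of log2(CPM + 1) over Top2a, Ccnb1, Cdk1, Cenpf, Ube2c, Hmmr, Tpx2, Aurka, Plk1 and Mki67. The libraries were chosen by these 10 measured values, so their values are a description and carry no test. The score ran from 4.50 to 9.40 in the G2/M-high libraries, with a median of 7.02, and from 0 to 1.29 in the G2/M-low libraries, with a median of 0.51. At the upper boundary, library 22 was inside with a score of 4.50 and library 25 was outside with 4.42. At the lower boundary, library 47 was inside with 1.29 and library 7 was outside with 1.40.

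**Figure D1:**
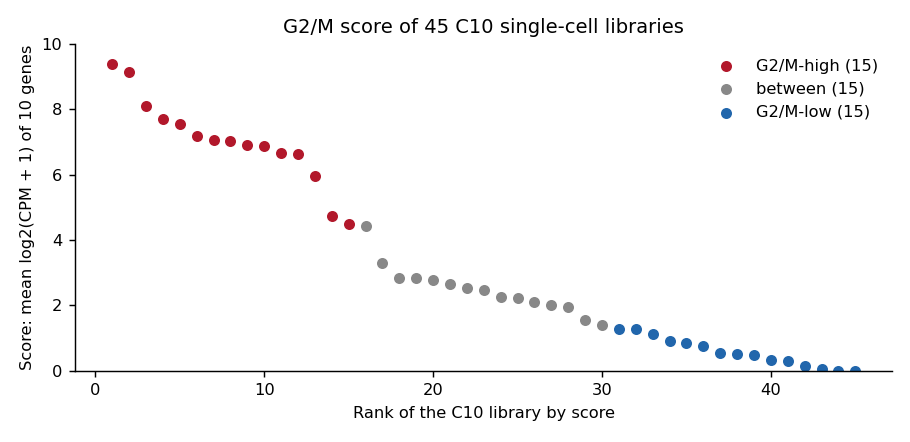
Score of each of the 45 C10 libraries (y axis, mean log2(CPM + 1) of 10 genes) against its rank (x axis), with 1 point per library. The points fall steeply among the high libraries, from 9.40 to 4.50, and the boundary on either side lies between libraries with close scores.

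The 10 genes were not uniform among the high libraries. Ube2c, a ubiquitin-conjugating enzyme of the APC/C, had a count in 15 of 15 high libraries (lowest 43.8, median 757, highest 3557 CPM) and in 1 of 15 low libraries. Cdk1, the mitotic kinase, had a count in 14 high libraries, in all 15 between and in 6 low libraries, with medians of 619, 156 and 0 CPM. Plk1, a kinase of mitotic entry, had a count in 14 high libraries and in no between or low library. Cenpf, a kinetochore protein, had a count in 9 high and 5 low libraries and a median of 0.48 CPM even in the high libraries. Mki67, a coat of mitotic chromosomes widely used as a proliferation marker, had a count in 12 high libraries, 2 between and 1 low library, and that low library held 181 CPM. Ccnb1, the cyclin B partner of CDK1, had a count in all 15 high libraries (lowest 63.7, median 196 CPM) and in no low library. Top2a, the topoisomerase that untangles sister chromatids, had a count in 12 high and 3 low libraries. Of the 5 genes given as markers of these cells, Ccnb1 was thus seen in every high library and Top2a, Cdk1, Cenpf and Mki67 in 9 to 14 of 15.

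The G2/M-high libraries held between 147254 and 5124498 gene counts (median 2405478) and the G2/M-low libraries between 435055 and 3617111 (median 1613575). In log2 the mean totals differed by 0.49, which did not pass a two-sided permutation test (adjusted p of 0.378 over 6 library measures). Genes with at least 1 count, without the 10 score genes, numbered 7035 ± 1398 in the high libraries (SD, n = 15) and 5438 ± 910 in the low libraries (SD, n = 15; permutation test, adjusted p = 0.00336). After every library was drawn down to 147254 counts the numbers were 5401 ± 864 and 4351 ± 696 (SD, n = 15 each; permutation test, adjusted p = 0.00336). The share of counts on the mitochondrial genome was 6.52% ± 1.12 in the high and 9.08% ± 6.15 in the low libraries (SD, n = 15 each; permutation test, adjusted p = 0.0248). Low library 24 stands apart at 30.9% mitochondrial counts, and high library 1 holds 71160 CPM of Malat1. Without these libraries the difference in mitochondrial share was -0.949 percentage points, with an adjusted p of 0.0711 in the permutation test. Of the defining genes of alveolar type II cells, Sftpa1, Sftpb, Sftpc, Sftpd and Nkx2-1 had no count in any of the 30 libraries. Abca3, a lipid transporter of these cells, had a count in 5 high libraries (highest 128 CPM) and 4 low libraries (highest 113 CPM), and Lamp3 in 5 high libraries (highest 0.831 CPM) and no low library. Cdh1 had a count in 9 high libraries (highest 1.92 CPM) and 7 low libraries (highest 6.20 CPM), and Cldn18 in 6 and 4. Epcam had a count in 1 high library, at 143 CPM. Krt18 had a count in 1 high library, at 8.73 CPM, and 1 low library, at 216 CPM, and Krt19 in 1 low library, at 23.0 CPM. The 13 alveolar and epithelial markers together had a median of 1.15 CPM in the high and 1.76 CPM in the low libraries, with highest values of 163 and 241 CPM. The 12 endothelial marker genes together reached at most 6.69 CPM in a high library and 20.5 CPM in a low library. Tek had a count in 7 high and 2 low libraries, Flt1 in 4 and 4, Pecam1 in 3 and 2 and Cdh5 in 1 and 0. The other 8 had no count in any of the 30. The 9 immune and fibroblast markers summed to a median of 0 in both groups, with highest values of 57.4 CPM in a high and 293 CPM in a low library. Most of this was Pdgfra, a receptor of fibroblasts, with counts in 3 high libraries (mean 4.83 CPM over 15) and 5 low libraries (mean 43.4 CPM over 15), while Ptprc, Csf1r, Cd3e and Dpt were at 0 in all 30. The part of these markers in the results was not tested.

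Outside the 10 score genes, many other mitotic genes were higher in the G2/M-high libraries, as were genes in none of the lists. Of 7868 genes tested with edgeR's quasi-likelihood test, 185 were higher in the G2/M-high libraries (2.35% of genes tested) and 11 were lower (0.14%) at a Benjamini-Hochberg adjusted p under 0.05. With limma on log2(CPM + 1), 235 genes were higher (2.99%) and 4 lower (0.0508%), and 109 genes were higher by both tools (1.39%). The same libraries gave the score and the other genes' counts, and the groups are the ends of a ranking, so these p-values describe genes that go with the score among these cells. The median log2 fold of all tested genes was 0.14 with edgeR's TMM scaling and 0.02 with DESeq2's size factors, and folds are read against that shift. In each library a lower level may be fewer molecules in the cell or less of its RNA captured, and these cannot be told apart.

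**Figure D2:**
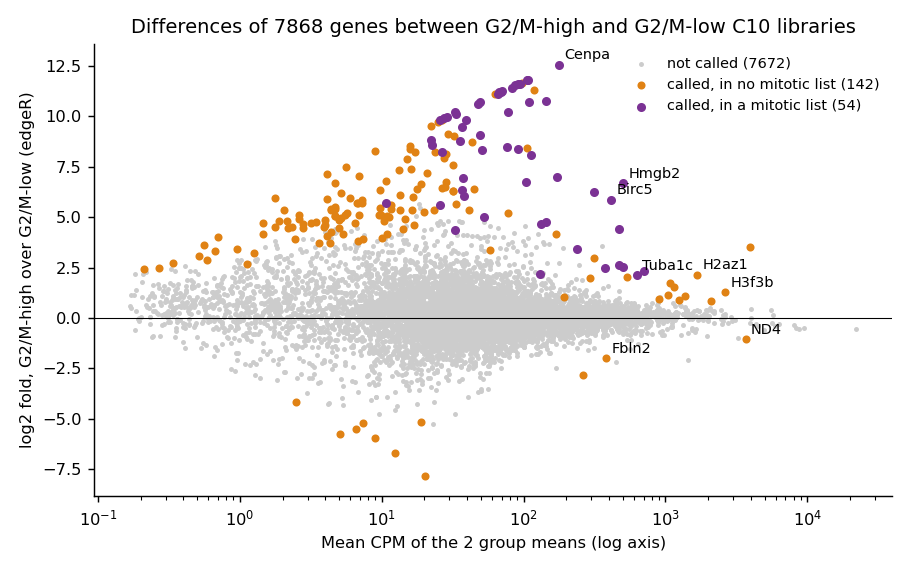
Log2 fold between G2/M-high and G2/M-low libraries (y axis, edgeR) against the mean CPM of both groups (x axis, log scale), 1 point per gene. The 54 called genes of the mitotic lists all lie above 0, and the largest folds belong to genes with no or nearly no count in the low libraries.

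The 6 lists of mitotic genes, none holding a score gene, together had 154 members, of which 120 were tested and 34 were too seldom detected. The libraries were ranked by mitotic genes, and the lists were chosen with earlier results of these data known. A high share among other mitotic genes was therefore likely from the start, and the shares are a description. Of the 120, 54 were higher (45%) and 0 were lower by edgeR, against 2.35% higher among all genes. By limma 75 were higher and 0 lower. Their median log2 fold was 3.53, with or without genes at 0 in every low library set to their bound, against 0.14 over all tested genes. Since 18 of the 120 had no count in any low library, they passed the filter through the high libraries alone, and the counts are a description. With the number of genes detected as a covariate 47 of 120 were higher, against 109 of 7868 over all genes. Without libraries 1 and 24 there were 46 of 108, against 144 of 7435. With genes required in 20 of the 30 libraries only 34 members could be tested. Of those 7 were higher, against 34 of 3979 over all genes. With the score as a continuous term over all 45 libraries 36 of 104 were higher, against 111 of 7937.

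Among regulators of G2/M, 11 of 17 tested genes were higher and none lower, with a median log2 fold of 4.36. Over all tested genes 2.35% were higher and 0.14% lower, the shares against which this and the other lists are read. Ccna2, cyclin A2, had a count in 12 of 15 high libraries (lowest 0, median 51.3, highest 576 CPM), in 2 of 15 between and in none of the low libraries. Every low library was at 0, while 3 high libraries were too. Its mean of 134 ± 173 CPM (SD, n = 15) was at least 53.5-fold higher than the floor of 3 counts per library in the low group, a mean of 2.51 CPM (edgeR, adjusted p = 0.000109). Aurkb, the kinase of the chromosomal passenger complex that corrects spindle attachments, reached a median of 253 CPM in the high libraries (lowest 0, highest 708), and 1 low library held 3 reads. The ratio of its pooled rates was 2733, with an exact 95% interval of 935 to 13255 that covers counting error only (edgeR, adjusted p = 1.18e-07).

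Ccnb2, a B-type cyclin, was in all 15 high libraries (lowest 62.8, median 143, highest 925 CPM), in 11 between and in 1 low library, which held 167 CPM. That single low library overlaps the high range. The log2 fold was 4.75 (SE 1.24, edgeR, adjusted p = 0.0252), and with genes detected as a covariate the adjusted p was 0.0698. Cks2, a small partner of cyclin-dependent kinases, was at a median of 458 CPM in the high libraries (lowest 92.7, highest 1035) and 0 in the low libraries (highest 155), with overlapping ranges. Its log2 fold was 3.43 (SE 0.95, edgeR, adjusted p = 0.0396), and the call was lost when any of 15 single libraries was left out, up to an adjusted p of 0.0808 without high library 1. Pbk, a mitotic kinase, had a count in 13 high and 2 low libraries. Lin54, the DNA-binding subunit of MuvB that contacts CHR elements, had a count in 12 high and 2 low libraries, where it held 3 reads in all (median 15.5 CPM in the high libraries, edgeR adjusted p = 0.000241). Lin9, another MuvB subunit, was also higher, by a log2 fold of 6.34 (SE 1.36, edgeR, adjusted p = 0.00409), a gene chosen after its values were seen.

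The spindle checkpoint holds anaphase until every chromosome is attached, and its list had 7 of 23 tested genes higher and none lower, with a median log2 fold of 1.68. Cdc20 was present in all 15 high libraries (lowest 20.4, median 161, highest 630 CPM). In the between libraries it was seen in 4 of 15, with a highest value of 89.8 CPM, and in the low libraries in 1 of 15, at 10.4 CPM. The high and low ranges do not overlap, and the log2 fold was 8.11 (SE 1.10, edgeR, adjusted p = 8.8e-06). Bub1b, a checkpoint kinase-like protein, had a count in 11 high libraries (median 4.45, highest 162 CPM) and 1 read in the low libraries (edgeR, adjusted p = 0.000318). Bub1, its partner kinase, had a median of 23.1 CPM in the high libraries and 0.44 in the low libraries and overlapped widely. Its log2 fold was 5.02 (SE 1.30, edgeR, adjusted p = 0.0249), and the adjusted p was 0.0570 without high library 43. Sgo1, the protector of centromeric cohesion, had a count in 13 high and no low libraries and was at least 38.0-fold higher (edgeR, adjusted p = 6.96e-05). Fbxo5, an inhibitor of the APC/C, had a count in 11 high libraries and none of the low libraries and was at least 26.3-fold higher (edgeR, adjusted p = 0.000499).

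Mad2l1, the checkpoint protein that binds CDC20, was chosen after its values were seen because its groups do not overlap. It ranged from 191 to 1472 CPM in the high libraries, with a median of 501, while 14 of 15 low libraries were at 0 and the other held 126 CPM. The between libraries lay in the middle, with a median of 155 CPM and 12 of 15 detected. Its log2 fold was 6.23 (SE 1.17, edgeR, adjusted p = 0.000763). Its promoter window above holds neither motif, unlike that of Cdc20.

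In the list of kinetochore and centromere genes, 12 of 24 tested were higher and none lower by edgeR, 21 by limma, with a median log2 fold of 4.13. Cenpa, the histone H3 variant that marks centromeres, was absent from the low group. It had a count in 14 of 15 high libraries (lowest 0, median 272, highest 1046 CPM), in 9 between (median 56.5 CPM) and in none of the 15 low libraries. The mean of 353 ± 248 CPM (SD, n = 15) was at least 140-fold above the floor (edgeR, adjusted p = 1.36e-07). That p is a description, since Cenpa passed the filter through the high libraries alone. Ndc80 and Nuf2 are partners in the complex that grips spindle microtubules. Ndc80 had a median of 245 CPM in the high libraries (14 of 15 detected, highest 378) against 2 reads over all low libraries (edgeR, adjusted p = 1.81e-09, the lowest of all genes). The p of Ndc80 is likewise a description, since its 14 high libraries alone met the filter. Nuf2 had a median of 180 CPM in 13 of 15 high libraries and no count in the low libraries, at least 68.7-fold higher (edgeR, adjusted p = 2.08e-05). Both were in only 3 of 15 between libraries.

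Birc5, survivin, a passenger complex subunit with Aurkb, was the most abundant kinetochore-listed gene named in the high libraries. It lay between 294 and 1509 CPM there, with a median of 796, and 13 of 15 low libraries were at 0 with a highest value of 128 CPM. The groups do not overlap, and the log2 fold was 5.86 (SE 1.14, edgeR, adjusted p = 0.00115). In the between libraries the median was 102 CPM and 12 of 15 had a count. Cenph, an inner kinetochore subunit, was at a median of 152 CPM in the high libraries and in 2 low libraries (highest 6.74 CPM), with a log2 fold of 8.37 (SE 1.20, edgeR, adjusted p = 2.12e-05).

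Spindle motors and cytokinesis genes gave 14 of 23 tested genes higher and none lower. Their median log2 fold was 5.60, or 4.35 with the 7 genes at 0 in every low library set to their bound. Kif23 and Ect2 act together at the spindle midzone, a motor and the exchange factor that starts the contractile ring. Kif23 had a count in 14 high libraries (median 139, highest 527 CPM), in 1 of 15 between at 8.12 CPM and in no low library, at least 65.6-fold higher (edgeR, adjusted p = 4.07e-06). Ect2 had a count in 13 high, 5 between and no low libraries and was at least 72.5-fold higher (edgeR, adjusted p = 8.38e-06). Cep55, which recruits the machinery of final abscission, was in 12 high, 2 between and no low libraries, at least 74.4-fold higher (edgeR, adjusted p = 5.26e-05). Kif11, the motor that pushes spindle poles apart, had a median of 88.1 CPM in the high libraries and 3 reads in all low libraries together (edgeR, adjusted p = 4.2e-05). Kif22, a chromosome-arm motor, was in 13 high libraries, 1 between and no low library and was at least 55.4-fold higher (edgeR, adjusted p = 5.37e-05). Ckap2l, a spindle protein, was in 13 high, 5 between and no low libraries, at least 85.3-fold higher (edgeR, adjusted p = 8.84e-06). The motors of the midzone and arms were thus nearly absent from the between libraries too.

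Condensin compacts mitotic chromosomes. Of 16 tested condensin and cohesin genes 4 were higher (25%, against 2.35% of all genes) and none lower, with a median log2 fold of 1.96. Those 4 were all condensin genes. Smc2, the core ATPase, had a count in 14 high libraries (median 280, highest 721 CPM) and 1 low library at 38.2 CPM, a log2 fold of 7.01 (SE 1.20, edgeR, adjusted p = 0.000243). Ncapg was in 11 high libraries and in no between or low library, at least 39.5-fold higher (edgeR, adjusted p = 0.000373). Ncaph was in 9 high libraries and 1 low library (edgeR, adjusted p = 0.000396), and it fell under the filter in 10 of the 30 fits that left a library out. Ncapg2, of condensin II, had a median of 17.9 CPM in the high libraries and 1 read in the low libraries (edgeR, adjusted p = 4.2e-05), and its highest value of 794 CPM belongs to library 34.

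**Figure D3:**
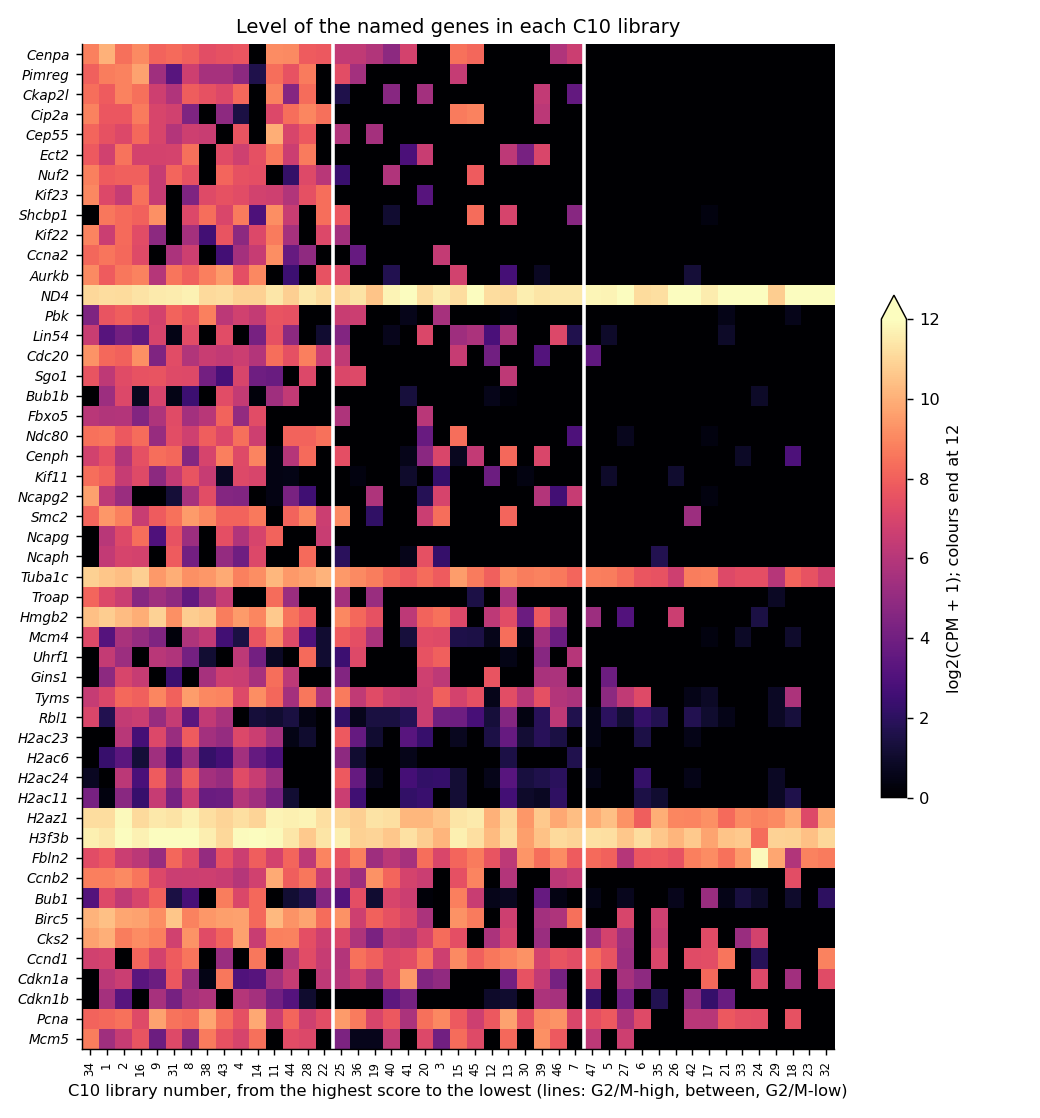
Level of 50 named genes (rows, log2(CPM + 1)) in the 45 C10 libraries (columns, from the highest score to the lowest, white lines between the groups). Rows such as Cenpa and Kif23 are black across the 15 low libraries, while H2az1, H3f3b, Tuba1c and ND4 are lit in every library.

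Of the remaining genes listed for G2/M, 6 of 17 tested were higher and none lower, with a median log2 fold of 2.47. Hmgb2, a chromatin protein that binds bent DNA, was among the most abundant: its median was 997 CPM in the high libraries (14 of 15 detected, highest 1935), 139 CPM between and 0 in the low libraries, of which 4 had a count and the highest held 97.0 CPM. The log2 fold was 6.69 (SE 1.13, edgeR, adjusted p = 0.000216), and 1 high library at 0 makes the ranges overlap. Tuba1c, an alpha-tubulin, changed by a smaller factor but in every library: 457 to 1867 CPM in the high group, with a median of 937, against 64.5 to 456 with a median of 191 in the low group. These ranges only just fail to meet, and the log2 fold was 2.12 (SE 0.30, edgeR, adjusted p = 1.97e-05). Pimreg, known as a mitotic regulator, was in 14 high, 3 between and no low libraries, at least 84.4-fold higher (edgeR, adjusted p = 1.16e-05). Its gene overlaps Aipl1 in RefSeq, and whether counting used strand is not given in the sources used here. Among other named genes, Cdc20 overlaps Elovl1, Ccna2 overlaps Exosc9, Ncapg overlaps Lcorl and Ccnd1 overlaps LTO1. Troap, a spindle protein, had a count in 11 high libraries and 1 read in the low libraries (edgeR, adjusted p = 3.09e-05).

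Outside the lists, the rule of largest folds also named Cip2a, an inhibitor of the phosphatase PP2A, and Shcbp1, a midbody protein. Cip2a was in 13 high, 3 between and no low libraries, at least 77.1-fold higher (edgeR, adjusted p = 3.57e-05). Shcbp1 was in 12 high libraries (median 260 CPM) with 1 read in the low libraries (edgeR, adjusted p = 1.18e-07), and it overlaps Gm6334. Of the 185 higher genes, 117 were in no list at all, of which 46 were also higher by limma. Many of the rest were seldom detected: 101 of the 185 had a count in fewer than 12 high libraries. Ccnb1-ps, listed as a pseudogene of the score gene Ccnb1, was among the higher genes with a median of 5.59 CPM, and reads of the 2 copies may have been split between them.

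Several named calls depended on how the groups were drawn. With the score as a continuous term Lin54, Ccnb2, Bub1, Cenph, Cip2a, Ncapg2, Mcm4, Uhrf1, Gins1 and Rbl1 no longer passed edgeR's test. With a depth minimum of 500000 counts Lin54, Gins1, Ccnb2, Cks2 and Rbl1 no longer passed. Lin54 then had a log2 fold of 2.33 (edgeR, adjusted p = 0.815) and Gins1 one of 3.93 (edgeR, adjusted p = 0.255). Bub1, Ccnb2 and Cks2 also failed with 10 against 10 libraries and without libraries 1 and 24.

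In 8 of 7868 genes (0.102%) every high library lay above every low library, and in 0 every high library lay below. These were H2az1, Hmgb1, Tmcc1, Tuba1c, Tubb6, Birc5, Mad2l1 and Cdc20, singled out after their values were seen. H2az1, the histone variant H2A.Z, had a count in all 45 libraries above the depth minimum: 1947 to 3744 CPM in the high group, with a median of 2432, 683 to 2889 between, and 147 to 1372 in the low group, with a median of 533. Its log2 fold of 2.15 (SE 0.23) had an edgeR adjusted p of 1.18e-07. Hmgb1, a chromatin protein related to Hmgb2, lay between 1019 and 2549 CPM in the high and 94.2 and 966 CPM in the low libraries, a log2 fold of 1.72 (SE 0.27, edgeR, adjusted p = 7.34e-05). Tubb6, a beta-tubulin, had a median of 382 CPM against 76.1 (log2 fold 2.96, SE 0.50, edgeR, adjusted p = 0.000237). Tmcc1, a membrane protein of the endoplasmic reticulum, had a median of 776 CPM against 195 (log2 fold 2.01, SE 0.27, edgeR, adjusted p = 8.23e-06). It overlaps Gm8203 in RefSeq.

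**Figure D4:**
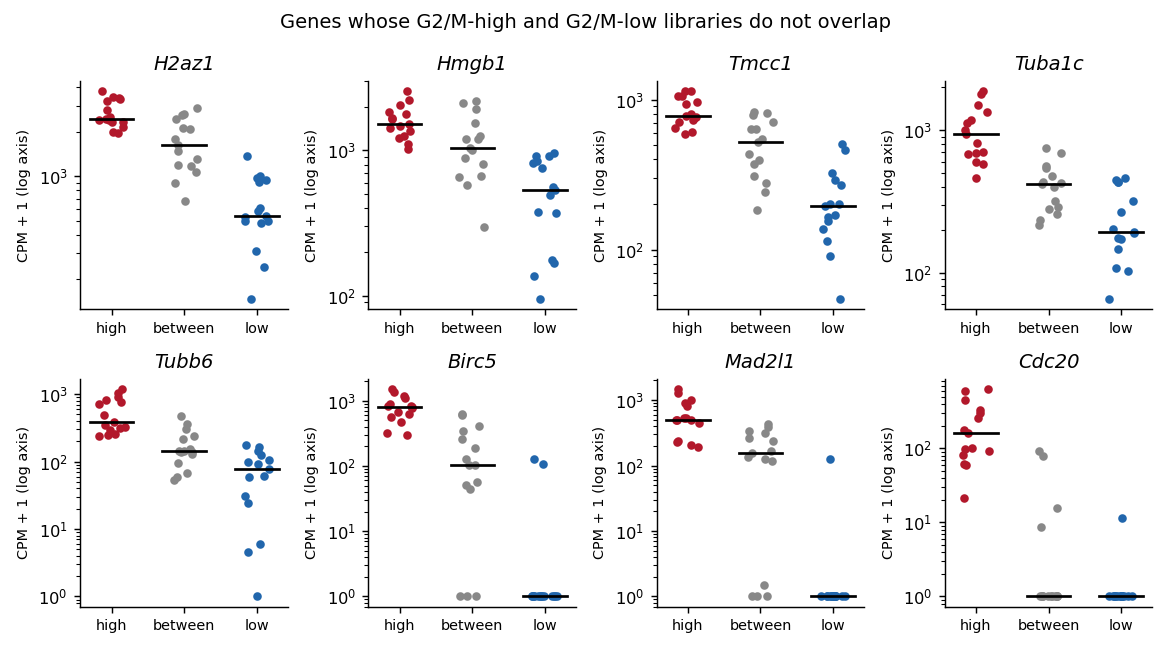
CPM + 1 (y axes, log scale) of the 8 genes whose high and low libraries do not overlap, 1 point per library and a bar at each median. For H2az1 the medians are 2432, 1630 and 533 CPM in the high, between and low libraries, and for Cdc20 the median is 0 already in the between libraries.

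Some replication genes were also higher. Of 57 listed S phase genes, 40 were tested, 6 were higher by edgeR (15%, against 2.35% of all genes) and none lower, and 20 were higher by limma. The median log2 fold was 2.56 and 39 of 40 were positive. By edgeR the count was 3 of 40 with genes detected as a covariate, against 109 of 7868 over all genes. With the score as a continuous term it was 2 of 43, against 111 of 7937, and at equal depth 11 of 34, against 131 of 6052. Mcm4, a subunit of the replicative helicase, was in all 15 high libraries but over a wide range (lowest 0.20, median 33.2, highest 544 CPM), in 13 between and in 3 low libraries with 4 reads in all (edgeR, adjusted p = 2.33e-05). Tyms, thymidylate synthase, had a median of 286 CPM in the high libraries (lowest 44.5), 102 between and 0 in the low libraries (7 of 15 detected, highest 152). Its ranges overlap, and the log2 fold was 4.16 (SE 1.04, edgeR, adjusted p = 0.0175), with an adjusted p of 0.165 when genes detected was a covariate. Uhrf1, a maintenance factor of DNA methylation, was in 11 high and no low libraries, at least 17.7-fold higher (edgeR, adjusted p = 0.00189). Gins1, of the replicative helicase, was in 10 high libraries and 1 low library, which held 13.6 CPM (edgeR, adjusted p = 0.015).

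Pcna, the sliding clamp, did not pass the test: it ranged from 94.8 to 900 CPM in the high libraries (median 303), from 51.3 to 828 between (median 225) and from 0 to 224 in the low libraries (median 67.9), with a log2 fold of 1.94 (SE 0.77, edgeR, adjusted p = 0.292). Mcm5, another helicase subunit, was in 13 high and 2 low libraries, with a log2 fold of 3.76 (SE 1.33, edgeR, adjusted p = 0.179). By limma Pcna (adjusted p = 0.0175) and Mcm5 (adjusted p = 0.000609) passed, so these calls differ by tool.

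The mean of log2(CPM + 1) over the 57 S phase genes ran from 1.35 to 5.94 in the high, from 1.41 to 5.24 in the between and from 0.59 to 2.19 in the low libraries. In the high group the top values were 5.94 in library 14 and 5.54 in library 38, where Cdc20 was at 60.1 and 91.5 CPM. The lowest were 1.35 in library 22, 2.38 in library 11 and 2.46 in library 44, with Cdc20 at 96.8, 326 and 174 CPM. Library 34, with the highest score and the highest Cdc20 at 630 CPM, had an S phase mean of 3.29. Over all 15 high libraries the S phase mean and Cdc20 had a Pearson correlation of -0.338 and a Spearman correlation of -0.525. Over the 15 between libraries these were 0.1 and 0.119. With the score in place of Cdc20 the signs were positive. The Pearson and Spearman correlations were then 0.41 and 0.332 in the high libraries and 0.328 and 0.154 in the between libraries. None of these correlations was tested. The between libraries fell into values of 3.77 to 5.24 in 7 libraries and of 1.41 to 2.27 in the other 8, a gap seen after the data were plotted. Cdc20 was at 0 in 5 of those 7 and in 6 of the other 8, and the mean over the 154 mitotic genes ran from 2.31 to 4.14 in the 7 and from 1.43 to 2.71 in the 8. In the low libraries the mitotic mean ran from 1.03 to 1.68 and in the high libraries from 2.75 to 6.07. All 15 between libraries lie inside the range of S phase means of the G2/M-high libraries.

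**Figure D5:**
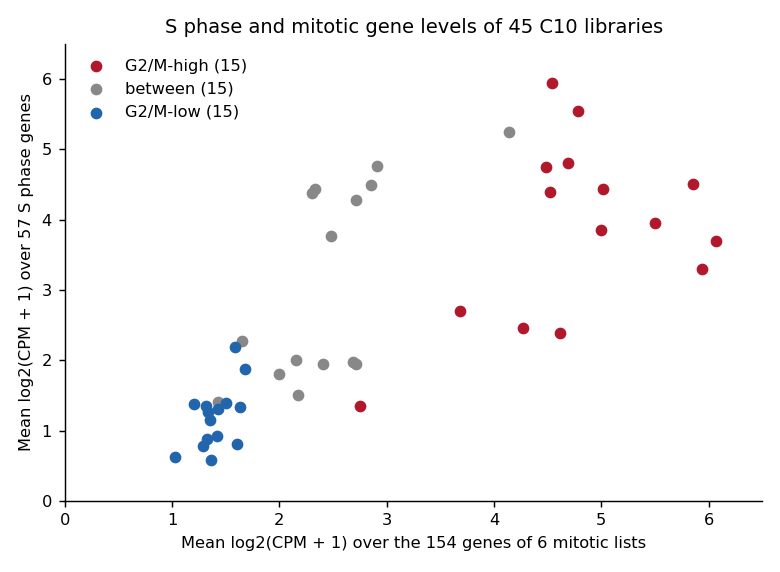
Mean log2(CPM + 1) of 57 S phase genes (y axis) against that of 154 mitotic genes (x axis), 1 point per C10 library. The low libraries reach an S phase mean of at most 2.19, 7 between libraries lie at 3.77 or above, and the high libraries run from 1.35 to 5.94.

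Replication-dependent histone genes, whose mRNAs lack a poly(A) tail and peak in S phase, were mostly too low to test: 13 of 67 passed the filter. Of these 5 were higher (38.5%, against 2.35% of all genes) and none lower, with a median log2 fold of 1.05. H2ac23 was in 12 high libraries (median 34.9, highest 232 CPM) and 3 low libraries with 3 reads in all (edgeR, adjusted p = 0.000237). H2ac24 (adjusted p = 0.000946), H2ac11 (adjusted p = 0.00189) and H2ac6 (adjusted p = 0.000902) were also higher by edgeR. Copies of these genes are nearly identical, so the share of reads given to each is uncertain. The replication-independent variant gene H3f3b, which codes for histone H3.3, was high in every library: 1618 to 5732 CPM in the high group (median 3295) and 314 to 2478 in the low group (median 1602). The ranges overlap, and the log2 fold was 1.26 (SE 0.19, edgeR, adjusted p = 4.2e-05).

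Of the regulators of G1 and p53 targets, 1 of 22 tested genes was higher (4.55%, against 2.35% of all genes) and none lower. The median log2 fold was 0.17, close to that of all genes. The gene that was higher by edgeR was Rbl1, the p107 pocket protein of the repressive DREAM complex. It had a median of 8.90 CPM in the high and 0.78 in the low libraries (log2 fold 5.24, SE 1.17, edgeR, adjusted p = 0.00608, limma adjusted p = 0.0507). By limma 1 of the 22 was higher too, but it was a gene other than Rbl1. Ccnd1, cyclin D1, was at a median of 108 CPM in the high libraries, 251 between and 36.2 in the low libraries, where 9 of 15 had a count. Its log2 fold was 0.14 (SE 1.10), and the groups overlap over nearly their whole range. The inhibitors Cdkn1a (p21) and Cdkn1b (p27) had log2 folds of 0.26 (SE 1.20) and 2.42 (SE 1.22) and did not pass edgeR's test, with adjusted p of 1.00 and 0.579. Ccne1 and Ccne2, the cyclins E, were too seldom detected to test: Ccne1 had a count in 6 high, 7 between and 1 low libraries, and Ccne2 in 1, 3 and 0. Their means were 13.8 CPM in the high and 0.488 CPM in the low libraries for Ccne1, and 5.04 CPM in the high and 0 in the low libraries for Ccne2, where library 14 held all of it.

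Few genes were lower in the G2/M-high libraries. ND4, a mitochondrially encoded subunit of respiratory complex I, was the only one lower by both tools (0.0127% of genes tested): 1766 to 3365 CPM in the high libraries (median 2329) against 1739 to 15335 in the low libraries (median 4044). The ranges overlap, the log2 fold was -1.06 (SE 0.26, edgeR, adjusted p = 0.015), and ND4 overlaps ND4L. Without low library 24, which holds the highest value, the log2 fold was -0.64 with an adjusted p of 0.0281, and with genes detected as a covariate the adjusted p was 0.216. All 13 mitochondrially encoded protein genes had negative log2 folds, with a median of -0.54, but only ND4 passed. Without libraries 1 and 24 the median of the 13 was -0.20. Fbln2, fibulin 2 of the extracellular matrix, was at a median of 149 CPM in the high and 348 CPM in the low libraries (highest 3822, in library 24). Its log2 fold was -2.00 (SE 0.54, edgeR, adjusted p = 0.0313), and without library 24 it was -0.98 with an adjusted p of 0.338. It also failed the test without high library 2, 4, 8 or 16. With all 30 libraries its adjusted p was 0.134 by limma and 0.188 by DESeq2. In the matrix list 1 of 23 tested genes was lower by edgeR, against 0.14% of all genes, and 0 were higher. By limma 1 of the 23 was lower too, but it was a gene other than Fbln2. Of the 23, 21 had a negative log2 fold, with a median of -0.83. Without libraries 1 and 24 none of 20 tested was lower and the median was -0.54. Ahnak, a large scaffold protein chosen after its values were seen, had a log2 fold of -2.84 (SE 0.76, edgeR, adjusted p = 0.0315), which was -1.08 with an adjusted p of 0.673 without library 24. Ahnak also failed edgeR's test without high library 2, 4, 8, 11, 16, 43 or 44, with adjusted p from 0.0501 to 0.0560. The other 8 lower genes had a count in at most 10 low libraries.

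No gene passed in either direction among 82 tested ribosomal protein genes (median log2 fold 0.25), 16 glycolytic genes (0.18), 15 cholesterol synthesis genes (-0.56), 18 YAP, TGF-beta and contractile genes (0.06), 15 immediate early genes (-0.28) and 20 heat shock and unfolded protein response genes (-0.25). By limma 0 of these passed too. Malat1, a nuclear noncoding RNA, counted as higher by edgeR with a log2 fold of 3.51 (SE 0.90, adjusted p = 0.0222), but its medians were 875 and 491 CPM and library 1 alone held 71160 CPM. Without high library 1 the log2 fold was 1.88 with an adjusted p of 0.264.

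The promoter letters were then set beside the calls. Of the 185 higher genes 149 were matched to RefSeq promoters by symbol, and 48 of these (32.2%) hold TTTGAA or its reverse within 250 bases before to 50 after a start. Among all 6281 tested genes with a promoter the share was 15.1%, and 17.9% over all 32851 RefSeq promoters. Of the 46 higher genes in a mitotic list that were matched, 28 (60.9%) hold it, against 20 of 103 (19.4%) higher genes in no mitotic list. No share was taken for mitotic-list genes that were tested and not called. The shares of listed genes therefore cannot separate being higher from being in a mitotic list. CCAAT on either strand is in 31 of the 46 (67.4%), in 51 of the 103 (49.5%) and in 43.0% of tested genes, and 37.4% of all promoters. Both motifs together are in 22 of the 46 (47.8%), in 10 of the 103 (9.71%) and in 6.45% of tested genes. In the printed windows TTTGAA starts 30 bases before the start in Hmgb2 and 18 before in Cdc20, and at bases 3, 5 and 17 after it in Kif23, Ccnb2 and Cenpa. These are matches of letters, not measured binding sites.

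The same score and rule were applied to SVEC, an endothelial mouse line in the same series, with 15 high and 15 low of 42 libraries. SVEC libraries were shallower, with medians of 521503 counts in the high and 485763 in the low group. In 1 edgeR model of the 4 groups, 152 of 6778 genes were higher in the high libraries of C10 (2.24%) and 137 in those of SVEC (2.02%). In either direction these were 156 in C10 (2.3%) and 165 in SVEC (2.43%). Of the mitotic lists 56 of 119 tested genes were higher in C10 and 28 of 119 in SVEC, with median log2 folds of 3.47 and 2.26. The difference between the lines itself passed in 106 genes (1.56%), 63 with a larger log2 fold in C10 (0.929%) and 43 with a larger one in SVEC (0.634%). Among the mitotic genes these were 19 and 4. By limma 1 gene passed, Hmgb2, and with a filter of 40 of 60 libraries 0 passed by edgeR (91 at an unadjusted p under 0.05), so most of these calls depend on the tool and on seldom detected genes.

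Hmgb2 had a log2 fold of 6.86 in C10 and 2.43 in SVEC, a difference of 4.43 (SE 1.05, edgeR interaction, adjusted p = 0.0120, limma adjusted p = 0.0119). It was present in all 15 SVEC low libraries at a median of 521 CPM, and in the SVEC high libraries at a median of 2122 CPM, whereas 11 of 15 C10 low libraries had no count. Within SVEC its difference did not pass (edgeR, adjusted p = 0.0671). With counts in 14 C10 high, 4 C10 low and all 30 SVEC libraries, Hmgb2 met the filter of 40 of 60 libraries. Under that filter its difference between the lines did not pass by edgeR. It did not pass either in the fit with the library number as a block. Mcm4 had a log2 fold of 8.57 in C10 and -2.10 in SVEC, where it did not pass (adjusted p = 0.466) and the median was 39.4 CPM in the high and 167 CPM in the low libraries (interaction 10.67, SE 1.65, edgeR, adjusted p = 9.95e-05, limma adjusted p = 0.277). Of the S phase list 6 of 40 genes were higher in C10 and 0 in SVEC, with medians of 2.49 and -0.16. Among the named genes higher in both lines by edgeR, Ndc80 had the lowest adjusted p in SVEC (2.96e-08). Kif23, Ccna2, Cdc20, Aurkb, Birc5, Sgo1, Ncapg2, Tuba1c, H2az1, H2ac23, H2ac6, H2ac24 and H2ac11 passed in both lines too. So did Kif22, Troap and Pimreg, with edgeR adjusted p in SVEC of 6.02e-06, 3.12e-06 and 3.47e-05. In the SVEC high libraries the medians of Kif22, Troap and Pimreg were 202, 137 and 122 CPM, against 93.6, 36.2 and 102 CPM in the C10 high libraries. Kif22 and Pimreg were at 0 in every low library of both lines, so the size of a difference between the lines could not be estimated for them.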

How the data were processed

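RNA of single C10 and SVEC cells was read as single reads of 150 bases from SMART-Seq libraries, per the labels' protocols. The deposited files hold raw counts per gene for 40202 gene symbols, made by the authors with STAR and HTSeq, per the submitters' processing notes, which also name FastQC. Versions, build, annotation and strand setting are not given in the sources used here. The files' closing counters were left out of all totals: in the 30 libraries a median of 62.6% of reads was assigned to genes, 28.5% was not aligned, 4.20% met no feature, 4.15% was ambiguous and 0.532% was of low quality. The reads carry no molecular identifiers, so intervals and floors cover counting error only.

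The counts were scaled with edgeR's TMM factors and tested with edgeR 4.0.16 (quasi-likelihood, R 4.3.3) on genes with at least 1 count in 10 of the 30 libraries, with Benjamini-Hochberg adjustment over all genes tested and a threshold of 0.05. SEs are of log2 folds. limma 3.58.1 on log2(CPM + 1) and DESeq2 1.42.0 were alternatives. Library measures were compared by two-sided permutation tests (100000 resamples, scipy 1.17.1). For C10 against SVEC, genes with a count in 20 of 60 libraries were fitted in 1 edgeR model. The fitting was tested on simulated counts in which as many genes were raised as lowered. The calls here are mostly higher and often at 0 in the low libraries, so that test does not cover them. Other alternatives were other scalings, filters, covariates, group sizes, depth minimums, equal depth, the score of z values, the score as a continuous term, and leaving out each library. No 2 libraries agreed within sampling noise. Nothing says that libraries came from separate cultures, so p-values measure the spread between these cells.

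Members and gene lists were chosen with earlier results of these data known. The genes named were, in each direction, the 12 largest folds among genes called by edgeR and limma and detected in 12 libraries of the higher group. Up to 4 called genes per list with the lowest adjusted p and a set of fixed cell cycle genes were also named. The lists numbered 21. For genes at 0 in every low library, folds are bounds against 3 counts per library, and adjusted p are a description. Adjusted p are also a description for genes with hardly a read in the low libraries whose high libraries alone met the filter. Ndc80, Shcbp1, Aurkb, Troap and Bub1b are examples.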

Additional observations from a re-analysis of the deposited data

Results flagged for a closer look

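Of 6778 genes, 106 (1.56%) differed in their difference between C10 and SVEC, 63 with the larger log2 fold in C10 and 43 in SVEC. For 17 of the named genes the difference between G2/M-high and G2/M-low libraries itself differed between C10 and SVEC in edgeR's interaction test. These genes were named for their folds or calls in C10, which favours a larger log2 fold there, so their common direction is no result. The values are the C10 log2 fold minus the SVEC log2 fold. Among kinetochore and passenger genes the difference was 8.54 for Cenpa, 8.10 for Nuf2, 7.64 for Cenph and 5.31 for Aurkb. For genes of the spindle and cytokinesis it was 8.57 for Ckap2l, 8.30 for Ect2, 7.13 for Cep55 and 8.43 for Shcbp1. The condensin genes Ncapg and Ncaph gave 7.47 and 6.75. Among regulators it was 7.17 for Pbk, 6.66 for Lin54, 6.26 for Fbxo5 and 7.33 for Cip2a. For the replication genes Mcm4 and Uhrf1 it was 10.67 and 10.27, and for Hmgb2 4.43. By limma only Hmgb2 passed. Where the C10 low libraries are at 0 or nearly so, these fitted values depend on the prior count and are no measure of size.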

How the results depend on the processing

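The count of 185 higher genes was 1822 of 15727 with no filter, 34 of 3979 with genes required in 20 of 30 libraries, 109 with genes detected as a covariate and 111 with the score as a continuous term. It ran from 148 to 192 when single libraries were left out. The count of 11 lower genes was 17 by DESeq2, 4 and 3 by limma with pseudocounts of 1 and 10, 773 with no filter, 1 with the stricter filter, 5 at equal depth, 6 with 10 against 10 libraries and 7 with a depth minimum of 500000. It ran from 6 to 13 when single libraries were left out. The mitochondrial share difference was -3.34 percentage points with 10 against 10 libraries (permutation test, adjusted p = 0.0798) and -0.949 without libraries 1 and 24 (adjusted p = 0.0711), a setting chosen after seeing the data. The unaligned share, -0.17 points, turned to 0.69 with 10 against 10 libraries, 0.40 with the deeper minimum and 0.29 without libraries 1 and 24, always within the spread. The number of genes whose difference differs between C10 and SVEC, 106, was 1 by limma, 1353 of 17012 with no filter and 0 of 2785 in 40 of 60 libraries (91 at an unadjusted p under 0.05). Fewer genes are tested under the stricter filters, and otherwise the cause was not tested.

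No paired analysis was possible because the high and low C10 libraries form 1 labelled group in which each library has its own number. Between the lines 18 numbers are shared, and same-numbered libraries did not deviate together (correlations from -0.04 to 0.02). For genes whose difference differs between C10 and SVEC, the fit with the replicate number as a block gave 0 of 5850 (220 at an unadjusted p under 0.05). For the named genes, 1469 of the leave-one-out values kept their side of the threshold and 21 lost the call. Under the other settings 652 kept it, 40 lost the call and 7 gained it. Direction was not always kept among genes not called. With genes detected as a covariate the log2 fold of Ccnd1 turned from 0.14 to -0.76 and that of Cdkn1a from 0.26 to -0.59. The share of calls that were higher was 94.4%, and 70.2% with no filter.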
